A study of Mus musculus with 6 samples.

Results

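The genes described here make, import and control sterols and fatty acids. They are 41 genes taken by symbol from textbook pathways: 7 genes of the mevalonate pathway, 11 of the path from farnesyl diphosphate through squalene to cholesterol, 5 of its transcriptional control, 9 of sterol uptake, transport and efflux, and 9 of fatty acid synthesis. Of the 41, 39 were measured, among 18194 genes with a probe set on the array. Of those 39, 38 reached the floor of a mean log2 intensity of 6 (intensity 64), as did 11153 genes in all. Lipe, which hydrolyses stored lipid and cholesterol esters, was the member under the floor, with 31, 36 and 41 on the KO arrays and 44, 37 and 34 on the WT arrays at 0, 2.5 and 4 h. Acat2 and Soat1 were not analysed here.

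RNA came from ovarian granulosa cells of immature mice, 23 days old, primed for 48 h with 5 IU of eCG (equine chorionic gonadotropin), which acts like follicle-stimulating hormone. Cells were collected before (0 h) or at 2.5 h or 4 h after 5 IU of human chorionic gonadotropin (hCG), which acts on the luteinizing hormone receptor as the ovulatory surge does. The knockout mice (KO) carried an ERK1 knockout and ERK2 fl/fl;Cyp19CRE, so that Cre from the Cyp19 promoter, active in granulosa cells, removes ERK2 there while ERK1 is missing from every cell. The control mice were labelled wild type (WT). All mice of both genotypes had received eCG. Each genotype and time had 1 Affymetrix array, 6 in all, so differences between single arrays are given without an error or a test. The labels do not say how many mice gave RNA for an array.

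Cholesterol is built from acetyl-CoA through mevalonate and squalene, and the transcription factors encoded by Srebf1 and Srebf2 switch on the genes of this path and of fatty acid synthesis when sterols are low in the endoplasmic reticulum. In the ovary, cholesterol is the raw material of progesterone and estradiol, and granulosa cells take part of it from lipoproteins once ovulation is triggered. The same acetyl-CoA feeds palmitate synthesis, and desaturases and elongases turn the products into the fatty acids of membranes, lipid droplets and prostaglandins.

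The promoters of the genes on which the results turn are shown first. They are the 6 of the 8 members at least 2-fold apart between genotypes at 4 h that have a window in the RefSeq table (assembly GRCm38.p6), with Hmgcs1 added as the member whose window holds a match to TCACNCCAC, the core of a sterol regulatory element. Each window runs 5′ to 3′ from 250 bases before to 50 after the annotated start, 300 bases in all. Capitals mark matches to TCACNCCAC and to CCAAT, the NF-Y motif, on either strand (ATTGG is CCAAT on the other strand). Cyp51 lies at chr5:4104648-4104947 on the minus strand, Hsd17b7 at chr1:169969156-169969455 on the minus strand, Sc5d at chr9:42264251-42264550 on the minus strand and Hmgcs1 at chr13:119690101-119690400 on the plus strand. Fads2 lies at chr19:10101454-10101753 on the minus strand, Acaca at chr11:84195188-84195487 on the plus strand and Elovl6 at chr3:129532136-129532435 on the plus strand.
Cyp51: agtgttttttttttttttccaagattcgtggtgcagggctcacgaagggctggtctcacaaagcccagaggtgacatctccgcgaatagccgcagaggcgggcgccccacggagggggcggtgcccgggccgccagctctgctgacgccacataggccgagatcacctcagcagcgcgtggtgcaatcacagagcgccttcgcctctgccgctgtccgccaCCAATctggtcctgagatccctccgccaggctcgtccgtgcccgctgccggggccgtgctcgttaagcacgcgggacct
Hsd17b7: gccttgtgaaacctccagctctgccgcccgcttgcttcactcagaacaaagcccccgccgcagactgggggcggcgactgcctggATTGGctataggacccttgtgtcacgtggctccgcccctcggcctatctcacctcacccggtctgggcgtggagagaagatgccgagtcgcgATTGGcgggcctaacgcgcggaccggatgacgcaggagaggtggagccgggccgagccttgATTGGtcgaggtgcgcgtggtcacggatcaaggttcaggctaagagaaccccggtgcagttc
Sc5d: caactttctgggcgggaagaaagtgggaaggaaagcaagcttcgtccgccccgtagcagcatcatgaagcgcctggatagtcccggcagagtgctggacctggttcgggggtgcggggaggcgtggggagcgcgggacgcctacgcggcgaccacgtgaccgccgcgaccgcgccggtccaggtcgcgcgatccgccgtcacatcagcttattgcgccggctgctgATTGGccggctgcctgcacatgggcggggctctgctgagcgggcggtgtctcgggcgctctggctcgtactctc
Hmgcs1: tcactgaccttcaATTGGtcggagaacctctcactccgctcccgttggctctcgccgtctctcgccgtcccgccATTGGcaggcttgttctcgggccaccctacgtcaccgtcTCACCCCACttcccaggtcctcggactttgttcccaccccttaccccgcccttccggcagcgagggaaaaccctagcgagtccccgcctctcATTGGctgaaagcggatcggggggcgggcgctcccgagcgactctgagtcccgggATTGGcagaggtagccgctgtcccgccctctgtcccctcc
Fads2: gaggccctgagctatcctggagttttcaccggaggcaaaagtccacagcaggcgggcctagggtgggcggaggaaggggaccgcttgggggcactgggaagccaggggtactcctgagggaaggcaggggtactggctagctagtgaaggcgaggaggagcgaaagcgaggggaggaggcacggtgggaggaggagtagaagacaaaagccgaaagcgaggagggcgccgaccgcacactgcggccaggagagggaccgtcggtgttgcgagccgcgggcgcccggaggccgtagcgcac
Acaca: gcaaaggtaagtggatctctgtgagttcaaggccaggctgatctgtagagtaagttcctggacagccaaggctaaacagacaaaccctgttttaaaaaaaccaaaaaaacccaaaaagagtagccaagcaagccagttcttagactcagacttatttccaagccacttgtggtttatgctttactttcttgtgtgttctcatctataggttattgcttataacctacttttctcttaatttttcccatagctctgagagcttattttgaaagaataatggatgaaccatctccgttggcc
Elovl6: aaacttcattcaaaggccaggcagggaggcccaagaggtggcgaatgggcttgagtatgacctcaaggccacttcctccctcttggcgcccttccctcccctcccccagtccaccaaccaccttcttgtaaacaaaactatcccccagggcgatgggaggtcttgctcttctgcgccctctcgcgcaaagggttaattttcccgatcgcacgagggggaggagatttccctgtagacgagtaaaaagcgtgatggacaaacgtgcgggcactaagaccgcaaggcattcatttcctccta

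The 3 sterol genes that were lower in KO at 4 h each have CCAAT in the window, with 3 copies in Hsd17b7 and 1 each in Cyp51 and Sc5d, and Hmgcs1 has 4. The windows of Fads2, Acaca and Elovl6, which were higher in KO at 4 h, hold none, although 1 window cannot stand for a gene such as Acaca that is known to have several promoters. Among members under 2-fold apart, CCAAT was found on both sides of WT at 4 h. Fasn (0.94 on the log2 scale), Mvk (0.91), Mvd (0.90) and Pmvk (0.51) lay above WT in KO, and Acly (-0.95) and Idi1 (-0.50) below. A link of CCAAT with the direction was not tested. Fdft1 and Scd1 are the other two of the 8. Windows were found for 31 of the 41 genes. CCAAT occurred in those of 23 (74.2%, against 41.1% of all 27025 genes in the table), and the GC box GGGCGG, which Sp1 binds, in those of 26 (83.9%, against 38.2%). TCACNCCAC was matched in the window of 1 member (3.23%, against 1.44%), as TCACCCCAC in Hmgcs1, and the cAMP response element TGACGTCA in 0 of 31 (against 2.03% of all genes). Both strands were searched for each motif, and a match is a description of the sequence, not evidence of binding.

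Array medians were 54 or 55, and 47.1% to 47.6% of probe sets per array were at intensity 64 or more. Gapdh signal at the 3' end exceeded that at the 5' end, which gauges RNA quality, by 5.21-fold, 3.99-fold and 4.24-fold in KO and by 4.79-fold, 3.55-fold and 4.01-fold in WT at 0, 2.5 and 4 h. Of 8 granulosa markers, 7 were measured and over the floor. They were led by the inhibin subunits Inha (33136 on the KO array and 27881 on the WT array at 4 h) and Inhba (34790 and 23868), and their summed intensity at 0, 2.5 and 4 h was 86856, 110907 and 109383 in KO and 90875, 70988 and 63006 in WT. Fshr (3603 in KO and 708 in WT), Hsd17b1 (17381 and 3530), Nr5a2 (16328 and 5450) and Foxl2 (4025 and 1454) were at least 2-fold higher in KO at 4 h. Theca markers (6 of 9 over the floor, led by Cyp17a1 and Mgarp) summed to 7459, 19820 and 21523 in KO and 7974, 6530 and 5593 in WT, with Gli1 and Bmp4 under the floor. The theca markers did not move together. At 4 h Cyp17a1, Mgarp and Tcf21 had 13997, 5302 and 129 in KO, against 1399, 1343 and 42 in WT. Hhip (117 against 467), Ptch1 (1540 against 1868) and Nr2f2 (366 against 393) were lower in KO. Ptch1 had stood at 3308 in KO at 0 h. Oocyte markers (6 of 6, led by Gdf9 and Oosp1) summed to 22802, 9349 and 8265 in KO and 12068, 7139 and 7595 in WT. Macrophage and leukocyte markers (7 of 9, led by Lyz2 and Csf1r, with Ptprc and Itgam under the floor) summed to between 1276 and 1779 in KO and between 1225 and 1276 in WT. Endothelial markers (4 of 8, led by Kdr and Egfl7, with Pecam1 and Tie1 under the floor) summed to between 661 and 729 in KO and between 693 and 1181 in WT. Of 6 adipocyte markers 4 were measured and 1, Retn, was over the floor (71 on the KO array and 625 on the WT array at 4 h). Adipoq stayed between 14 and 21 on all 6 arrays and Fabp4 reached 22 in KO and 158 in WT at 4 h. The part of these cell types in the differences below was not tested, and fewer cells of a type cannot be told apart from less RNA per cell.

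The lipid genes started lower in KO than in WT and were closer to or above WT by 4 h, with 2 groups that behaved differently. The sterol enzymes Cyp51 and Hsd17b7 were at least 2-fold lower in KO at all 3 times, and Acaca, Fads2 and Elovl6 of fatty acid synthesis were at least 2-fold higher in KO at 4 h. A gene counted as different between 2 arrays when it differed at least 2-fold and the brighter array was at or over the floor. At 0 h, 0 of 38 members were at least 2-fold higher in KO (background 0.681% of all genes) and 5 lower (background 0.852%). The 5 lower became 4 after cyclic loess, 2 with an offset of 32 added to the intensities and 1, Hsd17b7 (-1.03), with the probe sets of a gene averaged. The 2.5 h arrays had 2 members higher (1.44%) and 4 lower (2.75%), and the 4 h arrays had 4 higher (5.00%) and 4 lower (3.51%). As many as 34 of the 38 lay below WT at 0 h by any amount, beside 6256 of all 11153 genes. The member median of KO minus WT on the log2 scale was -0.44, -0.20 and 0.24 at 0, 2.5 and 4 h. The median over all genes was -0.03, 0.14 and 0.20. At 4 h the member median lay close to that of all genes. At 0 h and 4 h, 19 of 38 members lay first below and then above WT (beside 35.3% of all genes), 15 lay below WT at all 3 times (39.5%, beside 14.5%) and 4 above it at all 3 (10.5%, beside 27.6%).

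Rescaling the arrays by cyclic loess brought the median of all genes at 2.5 h and 4 h to 0.01 and 0.02, from 0.14 and 0.20, and the member medians to -0.40 and 0.02. All genes then split into 117 higher and 386 lower in KO at 2.5 h (161 and 307 as deposited) and 349 and 476 at 4 h (558 and 392 as deposited). Among the members, 1 was then higher and 6 were lower at 2.5 h, and at 4 h 2 were higher and 5 lower, with Fdft1 (0.94) and Acaca (0.82) under 2-fold. Of the 8 members called at 4 h, the signs of all 8 were kept under every alternative tried, but not all calls were. With probe sets averaged, Acaca (0.61), Fdft1 (0.33) and Sc5d (-0.33) fell under 2-fold, as did Acaca (0.98) with an offset of 32. Cyp51, Hsd17b7, Scd1, Fads2 and Elovl6 kept the 4 h call under each alternative.

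**Figure D1:**
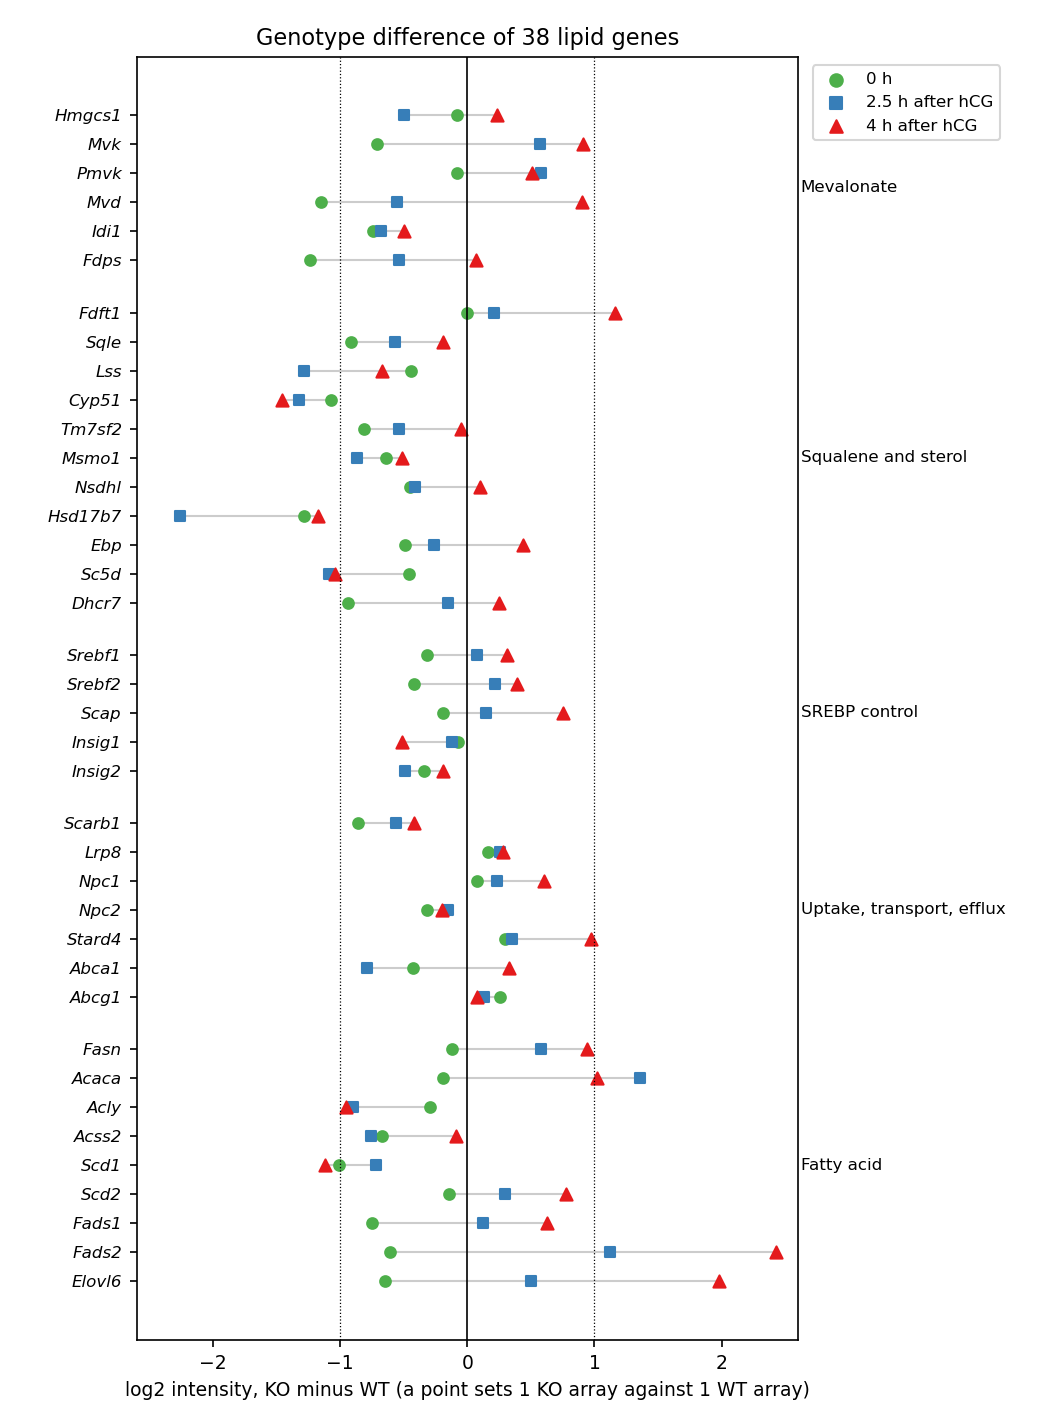
Difference in log2 intensity, KO minus WT, of the 38 lipid genes over the floor, grouped by role, at 0 h (circles), 2.5 h (squares) and 4 h (triangles) after hCG; each point sets 1 KO array against 1 WT array, and dotted lines mark a 2-fold difference. Most circles lie left of 0, Cyp51 and Hsd17b7 stay left of the 2-fold line at all 3 times, and Fads2 and Elovl6 move to 2.43 and 1.98 at 4 h.

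After hCG more members were higher than lower in both genotypes, and more of them in KO. In KO, 10 of 38 exceeded their 0 h level at least 2-fold at 2.5 h (background 3.35%) and 0 were lower (background 3.57%), and 16 were higher at 4 h (3.87%) with 0 lower (4.56%). In WT, 7 passed 2-fold upwards at 2.5 h (3.30%) and 0 downwards (1.0%), and at 4 h 9 were higher (4.91%) and 2 lower (9.11%). The WT arrays also held a downward shift of all genes, with a median of -0.22 at 2.5 h and -0.21 at 4 h (-0.05 and -0.04 after cyclic loess), which the KO arrays did not (-0.02 and 0.02). All genes split into 368 higher and 112 lower at 2.5 h in WT (455 and 44 after cyclic loess) and 548 and 1016 at 4 h (680 and 651). The member medians were 0.49 and 0.76 in KO and 0.15 and 0.01 in WT (0.46 and 0.71 in KO and 0.34 and 0.19 in WT after cyclic loess). At both times, 30 members lay above their 0 h level in KO (78.9%, beside 39.5% of all genes) and 17 in WT (44.7%, beside 22.8%).

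Of the members at least 2-fold higher at 4 h, 9 were so in both genotypes (23.7%, beside 2.0% of all genes), 6 were so in KO and not called in WT (15.8%, beside 1.79%), and 1, Elovl6, was higher in KO and lower in WT (2.63%, beside 0.0807%). The KO call of Elovl6 (1.07 on the log2 scale) did not hold after cyclic loess (0.98) or with its probe sets averaged (0.68), and its dimmest probe set gave -0.08. The 9 shared genes were Idi1, Cyp51, Sc5d, Dhcr7, Scarb1, Lrp8, Abca1, Acly and Scd1. The 6 called in KO alone were Mvk, Mvd, Fdps, Sqle, Acaca and Fads2. None was called higher in WT without being called higher in KO (0 of 38, beside 2.91% of all genes). Among the KO calls, those of Mvk (0.94), Acly (0.74), Acaca (0.55) and Fdps (0.51) also fell under 2-fold with probe sets averaged. So did the WT call of Sc5d (0.65). The 2 genotypes' responses rest on their own 0 h arrays, and the difference between those arrays enters each of them.

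**Figure D2:**
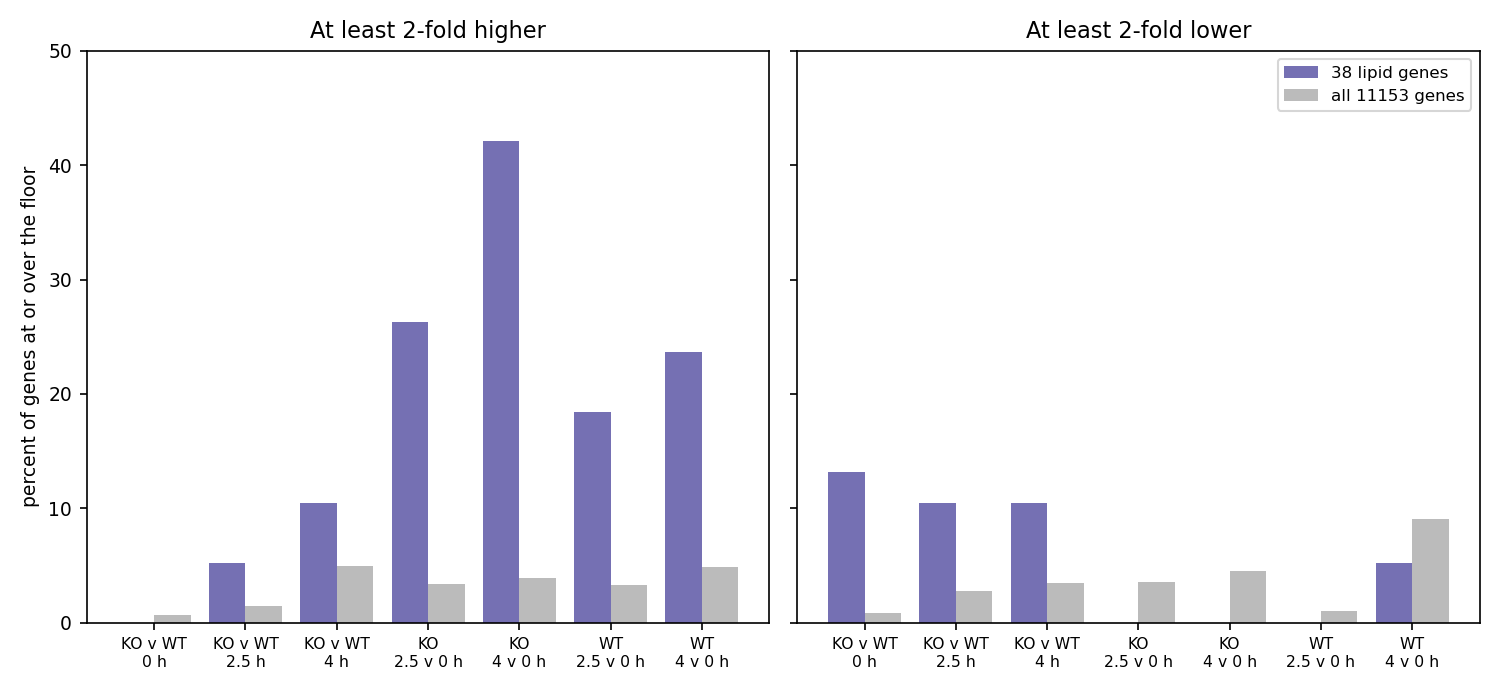
Percent of the 38 lipid genes and of all 11153 genes over the floor that were at least 2-fold higher (left panel) or lower (right panel), for KO against WT at 3 times and for hCG against 0 h in each genotype, 1 array a group. The tallest bar for the lipid genes is KO at 4 h against 0 h, where 16 of 38 were higher, beside 3.87% of all genes.

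The mevalonate pathway turns acetyl-CoA into farnesyl diphosphate. Its 6 measured genes all lay below WT in KO at 0 h (median -0.72), beside 6256 of all 11153 genes (median -0.03). At 4 h 5 of the 6 lay above it (83.3%, median 0.37), beside 68.2% of all genes (median 0.20). Mvd, the decarboxylase that makes isopentenyl diphosphate, had 85, 134 and 311 in KO and 188, 196 and 167 in WT at 0, 2.5 and 4 h. It was 2.21-fold lower in KO at 0 h, and it was 3.66-fold higher at 4 h than at 0 h in KO, while in WT its values differed by 1.13-fold. The 0 h difference was under 2-fold with probe sets averaged (-0.84) or an offset of 32 (-0.91), and a second Mvd probe set gave -0.53. Fdps, which makes farnesyl diphosphate, had 200, 391 and 442 in KO and 473, 568 and 420 in WT. It was 2.36-fold lower in KO at 0 h (-0.68 on the log2 scale with its probe sets averaged, 1 of them under the floor) and 1.05-fold apart at 4 h.

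Mvk, mevalonate kinase, had 210, 460 and 486 in KO and 344, 309 and 259 in WT, so that KO lay below WT at 0 h and above it at both later times. Its KO response was 2.31-fold at 4 h, and in WT its 4 h value was 1.33-fold lower than at 0 h. A second Mvk probe set gave 103, 163 and 164 in KO and 148, 163 and 171 in WT, without the difference at 4 h. Pmvk, the next kinase, had 329, 624 and 460 in KO and 348, 418 and 324 in WT, and was under 2-fold apart throughout.

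Idi1, the isopentenyl diphosphate isomerase, was higher after hCG in both genotypes. It had 566, 1391 and 1685 in KO and 943, 2232 and 2386 in WT, with 4 h responses of 2.98-fold in KO and 2.53-fold in WT. Hmgcs1, the HMG-CoA synthase at the head of the path, had 3217, 3362 and 5182 in KO and 3391, 4754 and 4433 in WT. It was called in no comparison, and of its other probe sets over the floor all 3 put KO below WT at 4 h (-0.39, -0.21 and -0.44) where the brightest gave 0.23.

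From squalene onwards the genes differed in where KO stood against WT at 4 h, above it, near it or below it. Fdft1, squalene synthase, the first committed step towards sterols, had 2599, 2497 and 4089 in KO and 2602, 2161 and 1826 in WT. It was level at 0 h and 2.24-fold higher in KO at 4 h. A second bright probe set gave 0.95 on the log2 scale, just under 2-fold. Sqle, squalene epoxidase, a rate-limiting enzyme of the path, had 1130, 1785 and 3083 in KO and 2119, 2646 and 3507 in WT. Each KO array lay below the WT array of the same time, by -0.91 at 0 h and by -0.19 at 4 h on the log2 scale.

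Cyp51, which removes a methyl group from lanosterol, was lower in KO at all 3 times and higher after hCG in both genotypes. Its intensities were 246, 800 and 965 in KO and 517, 1994 and 2655 in WT. The genotype difference was 2.10-fold, 2.49-fold and 2.75-fold at 0, 2.5 and 4 h. The response at 4 h was 3.92-fold in KO and 5.14-fold in WT. A second Cyp51 probe set over the floor gave -1.35, -1.21 and -1.60 between genotypes. At 0 h the difference was just under 2-fold with the gene's probe sets averaged (-0.97) or an offset of 32 (-0.98).

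Hsd17b7 reduces a sterol intermediate and, in rodent luteal cells, also turns estrone into estradiol. It had 1136, 1427 and 1641 in KO and 2756, 6847 and 3681 in WT. Every KO value lay below every WT value. The difference was 2.43-fold at 0 h, 4.80-fold at 2.5 h, when WT peaked, and 2.24-fold at 4 h. The 2 other probe sets over the floor gave -2.79 and -2.54 at 2.5 h and -1.70 and -1.57 at 4 h.

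Sc5d, a desaturase near the end of the path, had 1015, 2200 and 2413 in KO and 1401, 4679 and 4949 in WT, 2.05-fold lower in KO at 4 h. Its probe sets did not agree: a second had 305, 628 and 928 in KO and 689, 745 and 717 in WT, with KO above WT at 4 h. Another, at 113 to 210 on the 6 arrays, was under 2-fold apart at all 3 times. Lss, lanosterol synthase, had 298, 289 and 422 in KO and 403, 701 and 673 in WT and was 2.43-fold lower in KO at 2.5 h. Msmo1, a methylsterol oxidase, had 1637, 1653 and 2853 in KO and 2556, 3031 and 4070 in WT, lower at each time but under 2-fold.

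Dhcr7, which carries out the last step to cholesterol, had the largest hCG response of the 38 in KO at 4 h. It had 465, 2091 and 2833 in KO and 892, 2320 and 2375 in WT. The response at 4 h was 6.09-fold in KO and 2.66-fold in WT, and KO, 1.92-fold lower at 0 h, was 1.19-fold higher at 4 h. The 3 remaining sterol enzymes were under 2-fold in every comparison. Tm7sf2, a sterol reductase, had 494, 759 and 750 in KO and 865, 1105 and 774 in WT. Nsdhl, a sterol dehydrogenase, had 849, 935 and 1234 in KO and 1158, 1239 and 1150 in WT. Ebp, a sterol isomerase, had 981, 999 and 1159 in KO and 1379, 1193 and 852 in WT.

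**Figure D3:**
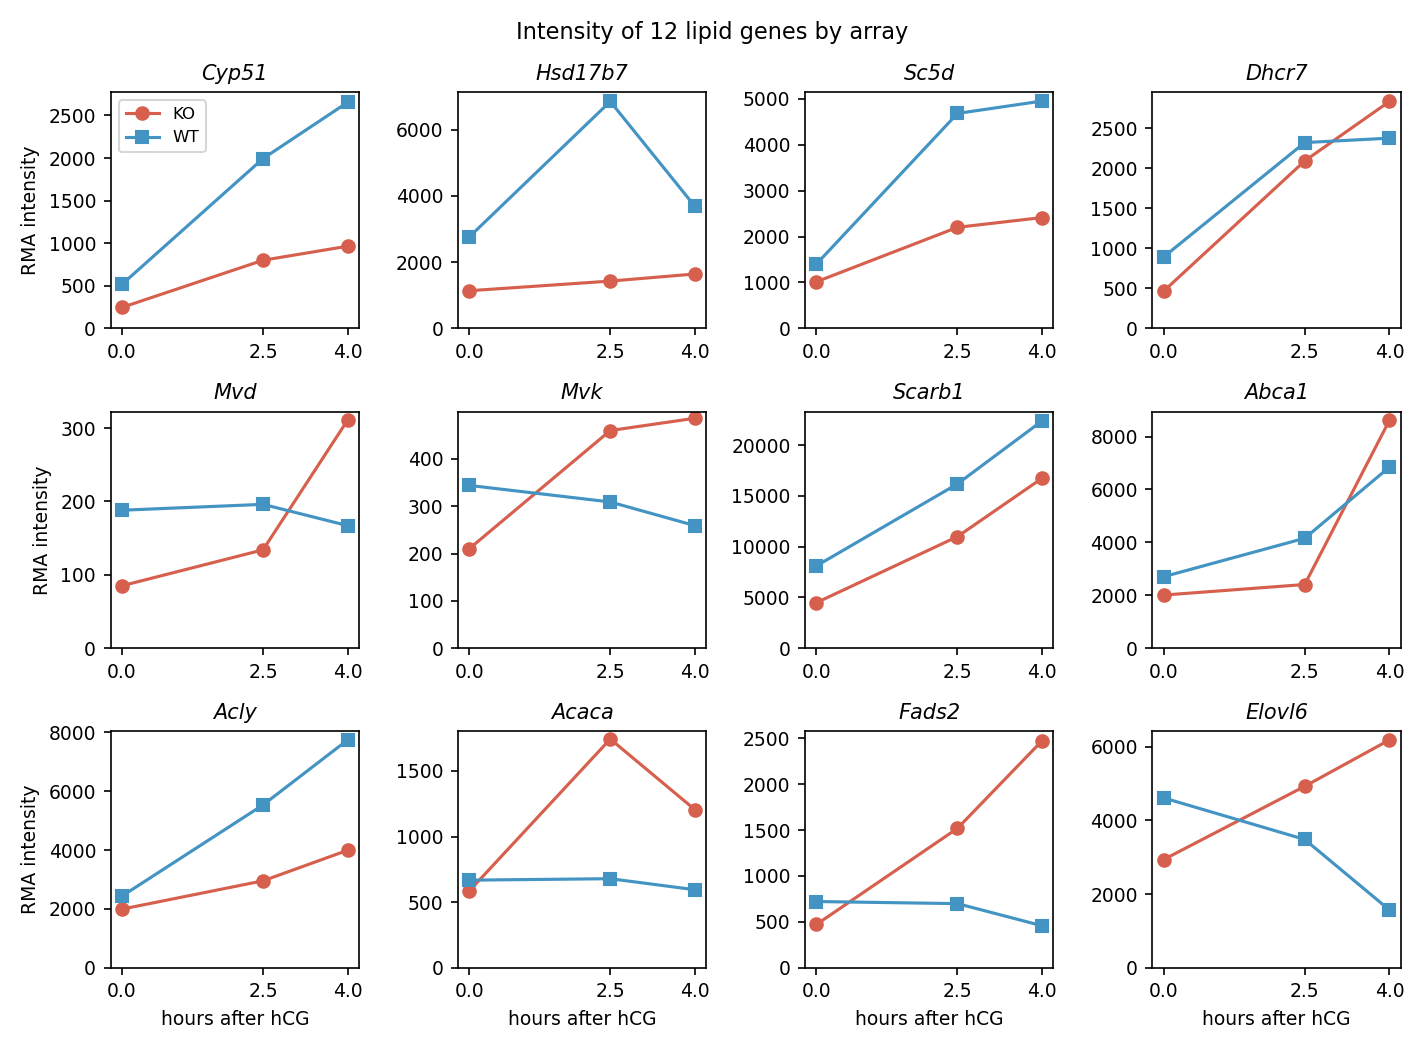
RMA intensity (linear axis from 0, scaled per gene) of 12 lipid genes against hours after hCG, for KO (circles) and WT (squares), 1 array a point. Cyp51, Hsd17b7, Sc5d, Scarb1 and Acly stay below WT in KO, while Mvk, Acaca, Fads2 and Elovl6 lie below WT at 0 h and above it at 4 h.

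Of the 5 genes that control the path, 0 were called in any of the 7 comparisons. Of all genes, 77.5% were likewise called in none. Srebf2, the transcription factor of sterol synthesis, had 220, 380 and 410 in KO and 295, 326 and 312 in WT. Its KO response at 4 h was 1.86-fold, against 1.06-fold in WT, but another probe set gave 1.55 in KO and 1.26 in WT on the log2 scale. Srebf1, which favours fatty acid genes, had 810, 996 and 1322 in KO and 1014, 945 and 1063 in WT. Scap, the sterol sensor that escorts both factors to the Golgi, had 6650, 6420 and 7164 in KO and 7610, 5803 and 4249 in WT, 1.69-fold higher in KO at 4 h. Insig1 and Insig2 hold Scap back when sterols are plentiful. Insig1 had 649, 703 and 757 in KO and 683, 764 and 1079 in WT, and Insig2 had 1091, 869 and 1181 in KO and 1383, 1219 and 1347 in WT. All 5 lay below WT in KO at 0 h, beside 6256 of all 11153 genes. In KO at 4 h all 5 lay above their 0 h level, by 0.11 to 0.90 on the log2 scale, beside 51.5% of all genes.

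Among uptake and transport genes, both lipoprotein receptors were higher after hCG in both genotypes. No gene of the group was 2-fold apart between genotypes by its brightest probe set. Scarb1, the receptor for high-density lipoprotein and a main source of cholesterol for rodent steroid synthesis, had 4480, 10994 and 16753 in KO and 8106, 16192 and 22407 in WT. Each KO array lay below the WT array of its time, by 1.81-fold at 0 h and 1.34-fold at 4 h, and the responses at 4 h were 3.74-fold in KO and 2.76-fold in WT. The other Scarb1 probe sets, nearly as bright, gave -1.05 and -0.70 between genotypes at 0 h on the log2 scale, the first past 2-fold. Lrp8, a receptor of the low-density lipoprotein receptor family, had 264, 702 and 804 in KO and 237, 587 and 661 in WT, with responses of 3.05-fold and 2.79-fold at 4 h. Its KO values were slightly above WT each time.

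Abca1, which exports cholesterol from cells, was late: it had 2006, 2406 and 8611 in KO and 2701, 4155 and 6846 in WT. Its KO level at 2.5 h was 1.20-fold above 0 h and at 4 h 4.29-fold above it, against 1.54-fold and 2.53-fold in WT. Npc1, which moves cholesterol out of lysosomes, went the other way, with 444, 286 and 319 in KO and 421, 244 and 210 in WT. Its partner Npc2 was level, with 6709, 7553 and 7468 in KO and 8371, 8361 and 8585 in WT. Stard4, a soluble sterol carrier, had 398, 483 and 655 in KO and 323, 379 and 335 in WT, 1.96-fold higher in KO at 4 h. Other Stard4 probe sets gave 0.69 and 0.46 at 4 h on the log2 scale. Abcg1, another exporter, was dim, at 211, 168 and 162 in KO and 176, 153 and 153 in WT.

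Fatty acid synthesis held the largest differences above WT. All 9 genes lay below WT in KO at 0 h (median -0.61), beside 6256 of all 11153 genes. At 4 h 6 of the 9 lay above it (66.7%, median 0.78), near the share of all genes (68.2%, median 0.20). Fads2, the desaturase that starts the path from linoleic acid to arachidonic acid, had 472, 1519 and 2473 in KO and 722, 699 and 458 in WT. It was 1.53-fold lower in KO at 0 h, 2.17-fold higher at 2.5 h and 5.40-fold higher at 4 h. Its other probe sets gave 2.37 and 1.25 at 4 h on the log2 scale. Elovl6, which lengthens palmitate, had 2935, 4921 and 6178 in KO and 4607, 3480 and 1570 in WT. At 4 h it was 3.94-fold higher in KO, where it stood 2.10-fold above its 0 h level, while WT stood 2.93-fold below its own. The other Elovl6 probe sets gave 1.41 and 0.98 between genotypes at 4 h, and 1.05 and -0.08 for the KO response at 4 h.

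Acaca, the acetyl-CoA carboxylase that commits acetyl-CoA to fatty acids, had 585, 1743 and 1205 in KO and 668, 679 and 595 in WT. The WT values were nearly flat, and KO exceeded WT by 2.57-fold at 2.5 h and by 2.03-fold at 4 h. The 4 h difference was under 2-fold after cyclic loess (0.82 on the log2 scale) and with an offset of 32 (0.98). Averaged with a second probe set, which was under the floor, the differences were 0.87 at 2.5 h and 0.61 at 4 h. Fasn, which builds palmitate, had 1029, 1363 and 1360 in KO and 1122, 913 and 711 in WT, 1.91-fold higher in KO at 4 h. Fads1, the partner of Fads2, had 1037, 1534 and 1802 in KO and 1739, 1409 and 1163 in WT. Scd2, another stearoyl-CoA desaturase, had 15698, 14753 and 18528 in KO and 17316, 12005 and 10789 in WT, 1.72-fold higher in KO at 4 h.

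Scd1 and Acly went against this pattern. Scd1, which makes oleic from stearic acid, had 137, 324 and 522 in KO and 275, 532 and 1138 in WT. It was 2.01-fold lower in KO at 0 h and 2.18-fold lower at 4 h, with responses of 3.81-fold in KO and 4.14-fold in WT. A second Scd1 probe set gave -0.06 at 0 h and -1.33 at 4 h, and the 0 h difference was under 2-fold after cyclic loess (-0.98), with probe sets averaged (-0.53) and with an offset of 32 (-0.86). Acly, which splits citrate into the acetyl-CoA that both paths use, had 1995, 2957 and 3997 in KO and 2438, 5537 and 7747 in WT, 1.94-fold lower in KO at 4 h. The 2 other bright Acly probe sets gave -1.75 and -1.60 at 4 h, past 2-fold. Acss2, which makes acetyl-CoA from acetate, had 127, 122 and 98 in KO and 202, 207 and 104 in WT.

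The responses of the 2 genotypes can be set against each other gene by gene. At 4 h the KO response exceeded the WT response by at least 1 on the log2 scale in 10 of 38 members (26.3%, beside 5.97% of all genes), and the reverse held for 0 of 38 (beside 3.37%). At 2.5 h the counts were 4 (10.5%, beside 1.91%) and 0 (beside 2.2%). By role, the 10 were 5 of 9 fatty acid genes, 3 of 6 mevalonate genes, 2 of 11 sterol genes, 0 of 5 control genes and 0 of 7 transport genes. Members started lower in KO at 0 h, and that difference is part of each of these values.

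**Figure D4:**
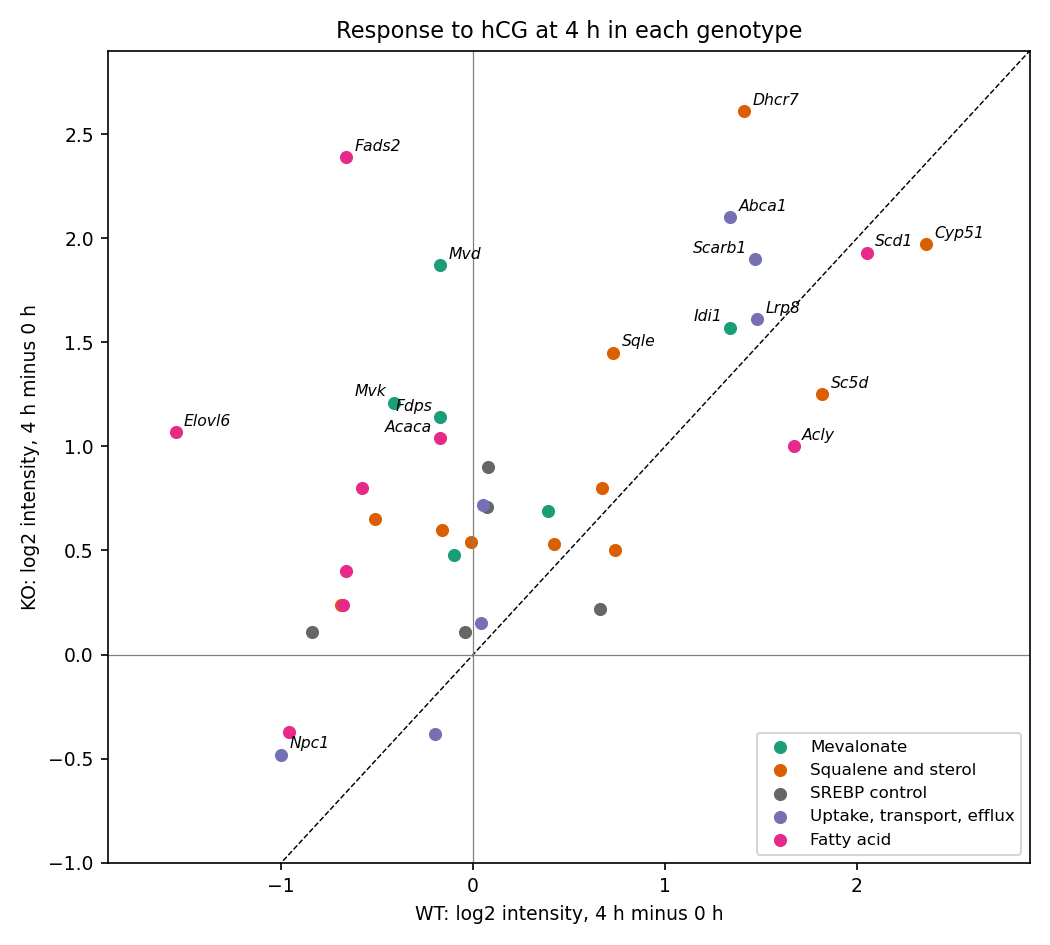
Log2 response to hCG at 4 h (4 h minus 0 h) in KO (vertical axis) against WT (horizontal axis) for the 38 lipid genes, coloured by role, 1 array a group and time; the dashed line marks equal responses and genes past 2-fold in either genotype are named. Fads2, Mvd, Mvk and Elovl6 lie far above the line, and Cyp51, Sc5d and Acly below it.

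Models over all 6 arrays asked which of these differences held across times or genotypes. Their residual is how far a difference varies between times or genotypes, not the spread between animals, and p-values were adjusted by Benjamini-Hochberg over the 11153 genes. For hCG (mean of 2.5 h and 4 h minus 0 h, over both genotypes), limma called 9 members higher (background 3.44%) and 1 lower (background 6.73%). Cyp51 rose by 2.00 ± 0.151 on the log2 scale (SE, limma adjusted p = 0.00556), the lowest p of the 38. Dhcr7 rose by 1.89 ± 0.253 (limma adjusted p = 0.0184), and Scd1, Sc5d, Lrp8, Scarb1, Idi1, Acly and Abca1 rose by 1.54, 1.48, 1.45, 1.42, 1.36, 1.11 and 1.08, with adjusted p between 0.00778 and 0.0461. Npc1 fell by 0.73 ± 0.165 (limma adjusted p = 0.0472). Cyp51, Dhcr7, Idi1, Lrp8, Sc5d, Scarb1 and Scd1 stayed called in every alternative run, while Npc1, Abca1 and Acly each lost the call in at least 1.

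For genotype over the 3 times, limma called 0 of 38 members at an adjusted p under 0.05 (background 0.0359%, 4 of 11153 genes), and 14 members had an unadjusted p under 0.05, 1 of them higher in KO, as had 1940 genes in all. Cyp51 came nearest, at -1.28 ± 0.143 (SE, limma adjusted p = 0.0564), lower in KO at 3 of 3 times. Hsd17b7 followed at -1.57 ± 0.238 (limma adjusted p = 0.0849) and Scd1 at -0.95 ± 0.145 (limma adjusted p = 0.087), each also lower at 3 of 3 times. Without the 4 h arrays 5 members passed, all lower in KO: Hsd17b7 (-1.77, limma adjusted p = 0.000415), Cyp51 (-1.19, 0.00322), Scd1 (-0.86, 0.0335), Fdps (-0.89, 0.0422) and Mvd (-0.85, 0.0498). Without the 0 h arrays 4 passed: Cyp51 (-1.39, limma adjusted p = 0.024), Sc5d (-1.06, 0.0359) and Acly (-0.93, 0.0437) lower in KO and Acaca (1.19, 0.0383) higher. Without the 2.5 h arrays 0 members passed. Each of these fits with a time left out had 1 residual degree of freedom. Calls over all 11153 genes grew as well. They were 63 higher and 182 lower in KO without the 4 h arrays, and 193 higher and 278 lower without the 0 h arrays. Without the 2.5 h arrays they were 3 higher and 13 lower.

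For the genotype by hCG interaction, limma called 0 members and 0 genes in all (background 0.00%). This fit took the 2.5 h and 4 h arrays of a genotype as 1 group, so a change between those times counted as error. At an unadjusted p under 0.05 there were 9 members, all 9 with the larger response in KO, beside 1015 genes in all. Mvk had the lowest p, with a difference between the responses of 1.45 ± 0.263 on the log2 scale (SE, limma adjusted p = 0.438). Fads2 had 2.39 ± 0.556 (limma adjusted p = 0.535) and Elovl6 1.89 ± 0.692 (limma adjusted p = 0.543). No difference in response between the genotypes was therefore called in this design.

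Other genes of the same pathways can be set beside the members at 4 h, when 5.00% of all genes were at least 2-fold higher in KO and 3.51% lower. Of 23 further sterol genes over the floor, 1 was higher (4.35%) and 3 were lower. Ch25h, which makes an oxysterol that restrains sterol synthesis, had 28, 42 and 48 in KO, under the floor, and 33, 724 and 536 in WT. Vldlr, a lipoprotein receptor, had 536, 433 and 341 in KO and 716, 787 and 1401 in WT. Apoa1, the main protein of high-density lipoprotein, had 520, 343 and 251 in KO and 1209, 674 and 683 in WT. Cyp27a1, which also makes an oxysterol, was the one higher in KO, with 474, 358 and 275 in KO and 398, 217 and 125 in WT.

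Of 25 further lipid genes over the floor, 5 were at least 2-fold higher in KO at 4 h (20.0%, beside 5.00% of all genes) and 2 lower (8.0%, beside 3.51%). Acsl4, which activates arachidonic acid, had 544, 571 and 949 in KO and 848, 3061 and 5767 in WT, lower in KO, where Fads2 was higher. Pparg, a nuclear receptor that drives lipid storage genes, had 1414, 801 and 825 in KO and 1690, 2640 and 2775 in WT. Acacb had 399, 245 and 267 in KO and 364, 230 and 92 in WT, and Mlxipl, a glucose-responsive transcription factor of lipogenesis, had 210, 200 and 375 in KO and 190, 186 and 142 in WT.

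Of 11 genes over the floor that use cholesterol for steroids, 3 were at least 2-fold higher in KO at 4 h (27.3%, beside 5.00% of all genes) and 2 lower (18.2%, beside 3.51%). Star, which carries cholesterol into mitochondria, had 69, 635 and 619 in KO and 304, 14678 and 16259 in WT, the widest gap of this list. Cyp17a1, the androgen-forming enzyme usual in theca cells, had 1845, 14251 and 13997 in KO and 1994, 2037 and 1399 in WT. Hsd17b1, which makes estradiol in granulosa cells, had 12681, 18764 and 17381 in KO and 13111, 9121 and 3530 in WT, and Akr1c18, which inactivates progesterone, had 98, 151 and 83 in KO and 111, 143 and 256 in WT. At 4 h Star was 8.97-fold above its 0 h level in KO and 53.5-fold above it in WT. Scarb1, Cyp51 and Dhcr7 were then 3.74-fold, 3.92-fold and 6.09-fold above theirs in KO. In WT they were 2.76-fold, 5.14-fold and 2.66-fold above theirs.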

How the data were processed

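Per the submitters' processing notes, the authors summarised the arrays with RMA in the affy package (versions not given in the sources used here). Deposited values are 1 intensity per probe set and array, whole numbers on a linear scale from 9 to 59425, while the design had assumed log2 values; log2 was taken and no test was changed. Quantile normalization in RMA hides changes in total RNA. Of 45101 probe sets, 34958 named 1 gene, 932 several and 9211 none in the platform annotation, and 34754 of the 34958 matched GRCm38.p6 by gene ID. The brightest probe set by mean log2 stands for a gene, and intensities of different genes are not compared. Array pairs used a rule of size (2-fold, brighter array at 64 or more). Python 3.11.15 was used for counts and limma 3.58.1 in R 4.3.3 for 3 fits on 6 arrays, an additive model of time and genotype and a model of 4 cells, each with 2 residual degrees of freedom (prior 3.99, 3.99 and 2.97) and Benjamini-Hochberg adjustment at 0.05, tested on simulated data. Alternatives were cyclic loess, the mean of a gene's probe sets, no floor, an offset of 32 and times left out. All members are named, and from each further list the genes at least 2-fold apart at 4 h (at most 4, by size), with the brightest 2 of each marker list. The members and lists were chosen with earlier results of these data known. The labelled genotypes are unchecked, since probe sets of the deleted kinases were not analysed here. The number of arrays limits the precision.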

Additional observations from a re-analysis of the deposited data

Results flagged for a closer look

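Among the 38 lipid genes, 6 moved in opposite directions after hCG in the 2 genotypes, above their 0 h level at both 2.5 h and 4 h in KO and below it at both times in WT. With 1 array a group this is a direction, and the limma interaction called 0 of them. The share of all genes with this pattern was not counted, so no background stands beside the 6. Over all genes, 39.5% lay above their 0 h level at both times in KO and 22.8% in WT. The pattern takes a move of any size, such as 0.03 for Ebp in KO and -0.05 for Fads2 in WT at 2.5 h. The KO minus WT response at 4 h on the log2 scale was 3.05 for Fads2 (interaction adjusted p = 0.535, limma), 2.63 for Elovl6 (0.543), 1.62 for Mvk (0.438), 1.38 for Fads1 (0.535), 1.06 for Fasn (0.542) and 0.94 for Ebp (0.588). Of the 6, 4 belong to fatty acid synthesis. The second Mvk probe set lay above its 0 h level in WT, at 163 and 171 against 148, and so did a second Fads1 probe set, by 0.12 and 0.13 on the log2 scale. One of the other Fads2 probe sets had 258 and 289 in WT at 2.5 h and 4 h, against 270 at 0 h, so that at 4 h it lay 0.10 above its 0 h level. The dimmest Elovl6 probe set had 127 and 118 in KO, against 125 at 0 h, and lay 0.08 below its 0 h level at 4 h (-0.08). The WT arrays carried a downward shift of all genes, with a median of -0.21 at 4 h.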

How the results depend on the processing

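Under the alternatives 27 member medians kept their sign and 1 turned: the WT response at 4 h was -0.01 without a floor and 0.01 with it. Of the counts of members past 2-fold, 47 stayed within 1.5 times and 9 did not. With cyclic loess, 1 member was at least 2-fold higher in KO at 2.5 h (2 as deposited), 2 at 4 h (4 as deposited), and 1 lower in WT at 4 h (2 as deposited). With a gene's probe sets averaged, 1 and 2 were higher in KO at 2.5 h and 4 h, and 1 and 2 lower at 0 h and 2.5 h (5 and 4 as deposited). With an offset of 32, 2 were lower in KO at 0 h and 1 lower in WT at 4 h. For genotype, limma called 4 members without the 0 h arrays and 5 without the 4 h arrays, against 0 with all arrays, and the other 12 limma counts stayed within 1.5 times. Over all genes it called 193 higher and 278 lower without the 0 h arrays and 63 and 182 without the 4 h arrays. With all arrays it called 1 higher and 3 lower. The interaction could not be fitted with a time left out, since no residual degree of freedom remains. The 4 h responses of Acly in KO (2.00-fold higher) and Npc1 in WT (2.00-fold lower) sat at the limit, and 34 of 50 calls with a second probe set over the floor were repeated by it. No paired analysis was possible because each group has 1 array and the labels carry no replicate numbers.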
